A study of Oryza sativa with 2 samples.

Results

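The 10 genes described here encode rice transport proteins for sodium and potassium ions: 5 members of the HKT family, the potassium channel AKT1, the sodium/proton antiporters SOS1 and NHX1, and the potassium transporters HAK1 and HAK5. They were chosen by locus ID from a fixed list that pairs each ID with its gene name, and all 10 of them were found among the 37896 rows of each expression table. Transcript levels come from 2 poly(A) RNA libraries, replicate 1 and replicate 2, of whole plants of the wild-type cultivar 93-11, an indica rice. The plants were seedlings 3 weeks of age, grown on Yoshida nutrient solution under short days, and neither library carries a treatment, a mutation or a transgene. Nothing in the labels ties a replicate to its own plants, so part or all of the spread between the libraries may be technical. With a single group there was no contrast to test, and the question addressed was at what level each transporter was expressed and how far the replicates differed.

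Potassium is the main inorganic cation of plant cells, and roots take it up through channels of the Shaker family, such as AKT1, and through high-affinity transporters of the HAK family. Sodium enters along some of the same routes. Plants limit its harm by taking it out of the xylem sap through HKT proteins of class I, by pumping it out of the cell with SOS1, and by storing it in the vacuole through NHX antiporters. HKT proteins of class I carry mainly sodium, whereas those of class II can also carry potassium. In a whole plant, a lower level of a transcript can stand for fewer cells of the expressing type or for less RNA in each cell, and these cannot be told apart here.

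The names were checked against RefSeq's gene table for ASM3414082v1, a japonica assembly. Of the 10 names, 8 had an entry each, and all 8 lay on the chromosome that the locus ID states. The genes fall on 6 chromosomes: HKT1;5, AKT1 and HAK5 on chromosome 1, HKT1;3 on chromosome 2, HAK1, HKT1;1 and HKT1;4 on chromosome 4, HKT2;1 on chromosome 6, NHX1 on chromosome 7 and SOS1 on chromosome 12. On chromosomes 1 and 4 the order of the named genes in RefSeq was that of the locus numbers. The names SOS1 and NHX1 had no entry. RefSeq's table does not pair any of the 10 names with its locus ID, so all 10 pairings rest on the list. A match of chromosome or order would not reveal a wrong locus nearby. Which parts of the plants the RNA came from could not be checked by marker genes, because no marker genes could be paired with IDs of the tables.

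Each of the 10 transporters was detected in both libraries, at 1 FPKM or more. FPKM divides a fragment count by transcript length and by the mapped total, so it allows levels to be set in order between genes. Among all 37896 rows, 53.1% met the same criterion. The median of the transporters' mean levels was 4.43 FPKM, against 2.05 FPKM for all rows and 10.4 FPKM for the rows detected in both libraries. The number detected was 4 at a threshold of 5 FPKM in both libraries, which 35.8% of all rows met. Of the 10 transporters, 4 had a mean of at least 10 FPKM, as did 27.4% of all rows. Only HAK1 reached 100 FPKM, a level that 2.63% of all rows reached. Among the 4, HAK1, AKT1 and SOS1 reached 10 FPKM in each of the 2 libraries, while NHX1 reached it in replicate 2 alone. The share of all rows at 10 FPKM or more in both libraries was not computed.

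**Figure D1:**
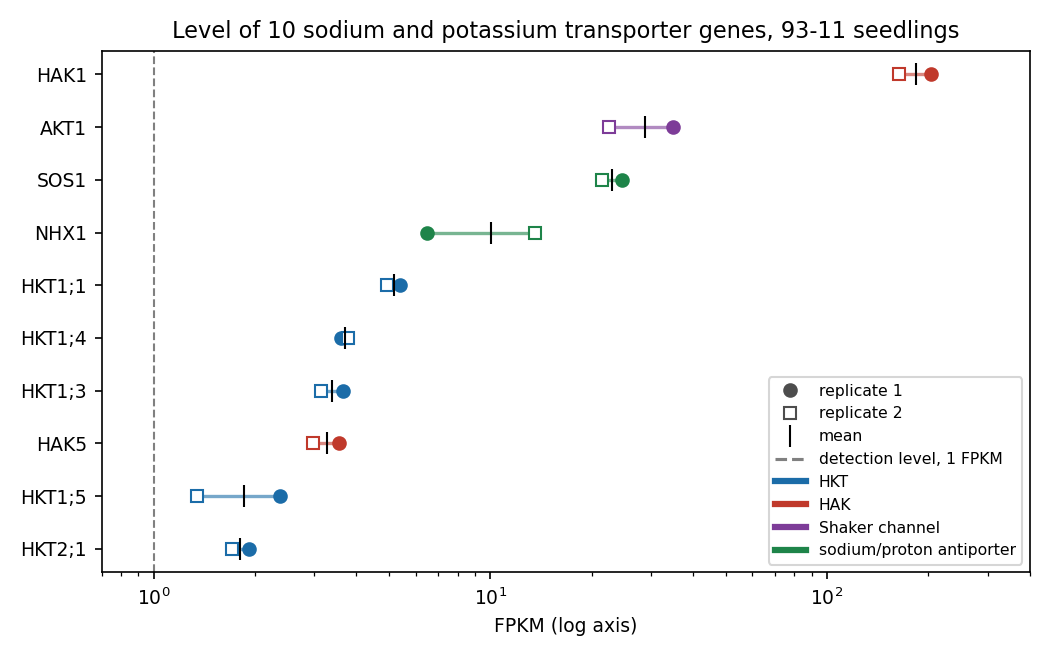
Level of each transporter gene in FPKM on a log axis, with a filled circle for replicate 1, an open square for replicate 2 and a bar for their mean. HAK1 stands apart at 203.1 and 163.2 FPKM, AKT1 and SOS1 lie between 21.4 and 34.9 FPKM, and the 5 HKT genes and HAK5 lie between 1.34 and 5.40 FPKM.

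HAK1 (LOC_Os04g32920), a high-affinity potassium transporter that serves potassium uptake by rice roots, had the highest level of the 10. It stood at 203.1 FPKM in replicate 1 and 163.2 in replicate 2, a mean of 183.2 ± 28.2 FPKM (SD, n = 2). Both values lay above every value of every other transporter in the set. HAK1 ranked at place 453 of all 37896 rows by its mean, the 98.8 percentile, and at place 37 of the 3317 rows of chromosome 4. It held 70.1% of the summed FPKM of the 10 genes in replicate 1 and 68.4% in replicate 2.

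HAK5 (LOC_Os01g70490), of the same family, mediates high-affinity potassium uptake in roots and takes part in moving potassium from root to shoot in rice. Its level was low, with 3.55 FPKM in replicate 1 and 2.97 in replicate 2, a mean of 3.26 ± 0.411 FPKM (SD, n = 2). HAK1 exceeded it 57.1-fold in replicate 1 and 54.9-fold in replicate 2. The gap between the 2 HAK genes was therefore nearly the same in each library, and far larger than the difference between libraries at either gene. HAK5 lay at the 55.3 percentile of all rows.

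AKT1 (LOC_Os01g45990), an inward-rectifying Shaker channel of the root plasma membrane that takes up potassium, was the second of the order. It stood at 34.9 FPKM in replicate 1 and 22.5 in replicate 2, a mean of 28.7 ± 8.74 FPKM (SD, n = 2), at the 89.1 percentile. HAK1 lay 5.82-fold above AKT1 in replicate 1 and 7.24-fold above it in replicate 2. AKT1 was 1.55-fold higher in replicate 1, more than most loci of like level differed, as described with the replicate ratios.

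SOS1 (LOC_Os12g44360), the plasma membrane antiporter that exports sodium in exchange for protons, followed closely. Its values were 24.6 FPKM in replicate 1 and 21.4 in replicate 2, a mean of 23.0 ± 2.30 FPKM (SD, n = 2), at the 86.4 percentile. The ranges of AKT1 and SOS1 overlapped, and AKT1 was higher than SOS1 by 1.42-fold in replicate 1 and by 1.05-fold in replicate 2. Their order was the same in both libraries but did not exceed the spread between them. Scaled to the same summed FPKM, the libraries gave 33.2 and 23.8 FPKM for AKT1 and 23.4 and 22.6 FPKM for SOS1, and these ranges no longer overlapped.

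NHX1 (LOC_Os07g47100), the vacuolar antiporter that moves sodium and potassium into the vacuole in exchange for protons, was less abundant and the most variable of the 10. It stood at 6.47 FPKM in replicate 1 and 13.6 in replicate 2, a mean of 10.04 ± 5.05 FPKM (SD, n = 2). SOS1 was above NHX1 by 3.81-fold in replicate 1 and by 1.57-fold in replicate 2, and their ranges did not overlap. The percentile of NHX1 was 65.8 in replicate 1 and 78.2 in replicate 2. The size of the gap between the 2 antiporters thus depended on the library, while its direction did not.

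The 5 HKT genes were all of low level and together gave 17.0 FPKM in replicate 1 and 14.9 in replicate 2. This sum was 5.86% and 6.24% of that of the 10 genes, less than AKT1 alone held, which was 12.05% in replicate 1 and 9.45% in replicate 2. Within the family the highest gene exceeded the lowest 2.83-fold in replicate 1 and 3.69-fold in replicate 2. The highest mean among them lay at the 61.6 percentile of all rows and the lowest at the 48.8 percentile.

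HKT1;1 (LOC_Os04g51820), a class I sodium transporter that limits sodium in rice leaf blades, was the highest of the family. It stood at 5.40 FPKM in replicate 1 and 4.94 in replicate 2, a mean of 5.17 ± 0.325 FPKM (SD, n = 2), and both values lay above all those of the other 4 HKT genes. HKT1;4 (LOC_Os04g51830), which restricts sodium in leaf sheaths and stems of rice, had 3.61 FPKM in replicate 1 and 3.77 in replicate 2, a mean of 3.69 ± 0.116 FPKM. Its values as deposited lay close together, within 1.05-fold, and the gap was 1.16-fold after scaling to the same summed FPKM. HKT1;3 (LOC_Os02g07830), a sodium-selective transporter of class I, had 3.66 FPKM in replicate 1 and 3.13 in replicate 2, a mean of 3.39 ± 0.372 FPKM. HKT1;3 and HKT1;4 changed places between the libraries, so no order of these 2 genes can be given.

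HKT1;5 (LOC_Os01g20160), also known as SKC1, takes sodium back from the xylem sap and is known for its part in the salt tolerance of rice cultivars. It had 2.38 FPKM in replicate 1 and 1.34 in replicate 2, a mean of 1.86 ± 0.734 FPKM (SD, n = 2). HKT2;1 (LOC_Os06g48810), the class II member, supports sodium uptake by rice roots that lack potassium. It had 1.91 FPKM in replicate 1 and 1.70 in replicate 2, a mean of 1.81 ± 0.148 FPKM. HKT1;5 was the higher of the 2 genes in replicate 1 and the lower in replicate 2. Their ranges overlapped, and both genes lay near the median of all rows, at the 49.1 and 48.8 percentiles. Among the rows detected in both libraries they lay at the 5.96 and 5.51 percentiles.

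In the order of the means, HAK1 was followed by AKT1, SOS1, NHX1, HKT1;1, HKT1;4, HKT1;3, HAK5, HKT1;5 and HKT2;1. Of the 9 steps in this order, 5 separated genes whose ranges over the libraries did not overlap. The 4 steps with overlapping ranges were those from AKT1 to SOS1, from HKT1;4 to HKT1;3, from HKT1;3 to HAK5 and from HKT1;5 to HKT2;1. Over all 45 pairs of the 10 genes, whose means span 101-fold, 43 had the same order in both libraries. Such a count was not made for other sets of rows. With 2 values for each gene no exact test could reach 0.05, so these orders are a description.

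**Figure D2:**
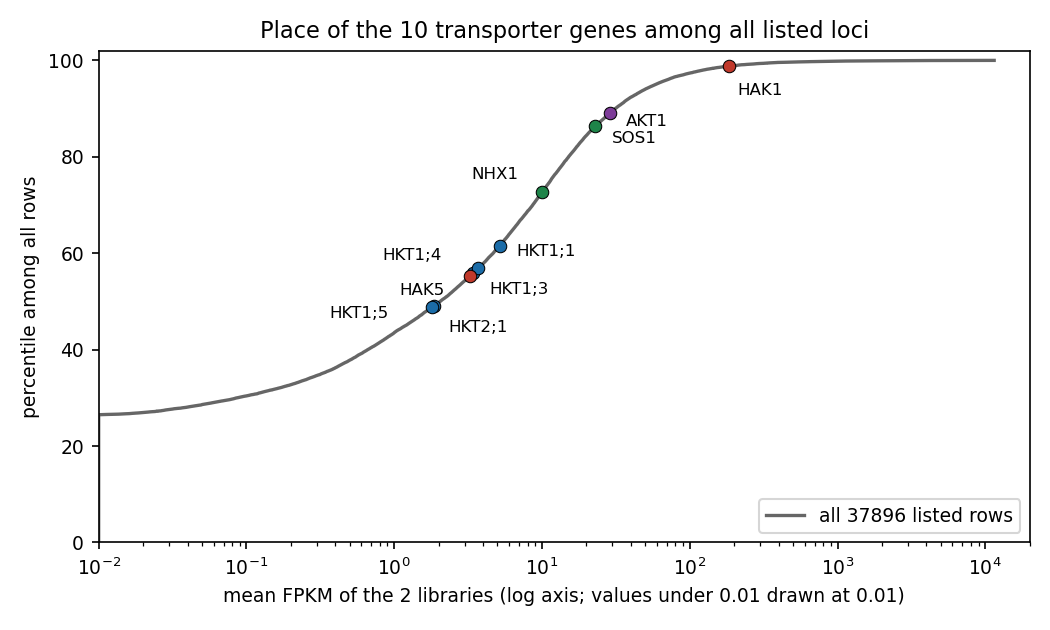
Mean FPKM of all 37896 rows on a log axis against their percentile (grey line), with the 10 transporter genes as points coloured by family. HAK1 lies at the 98.8 percentile, AKT1 and SOS1 at 89.1 and 86.4, NHX1 at 72.7, and the 5 HKT genes and HAK5 between 48.8 and 61.6.

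Between the replicates, 8 of the 10 transporters were higher in replicate 1, and NHX1 and HKT1;4 were higher in replicate 2. The share of rows higher in replicate 1 was 55.2% among the 21411 rows whose mean was at least 1 FPKM. The direction of HKT1;1 turned when the libraries were scaled to the same summed FPKM, from -0.11 to 0.02 on the log2(FPKM + 1) scale, and the other 9 kept theirs. This scaling moves every log2 ratio of FPKM, replicate 2 over replicate 1, by 0.15. None of the 10 differed more than 2-fold on FPKM + 1 as deposited, where 8.46% of these 21411 rows did.

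NHX1 came closest to this limit. Its FPKM was 2.10-fold higher in replicate 2, and the added 1 brought the log2 ratio to 0.97. With the libraries scaled to the same summed FPKM the log2 ratio was 1.10, past the limit, as were 8.99% of the 21443 rows then at a mean of 1 FPKM or more. Of the 1000 rows nearest to NHX1 in mean level, 91.2% differed less between the libraries. The median difference of those rows was 1.18-fold on FPKM + 1.

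The next largest proportional differences were at HKT1;5 and AKT1. HKT1;5 was 1.77-fold higher in replicate 1, or -0.53 on the log2(FPKM + 1) scale, and 68.0% of the 1000 rows of like level differed less. AKT1 had a log2 ratio of -0.61, and 86.9% of the 1000 rows of like level differed less. For HAK1 the log2 ratio was -0.31, and 41.9% of its like-level rows differed less, so its difference was an ordinary one for its level. HKT1;4 had a log2 ratio of 0.05 as deposited and of 0.17 after scaling to the same summed FPKM. For 9 of the 10 genes, fewer than 90% of the rows of like level differed less. NHX1 passed this limit, which by its construction about 1 in 10 rows passes.

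**Figure D3:**
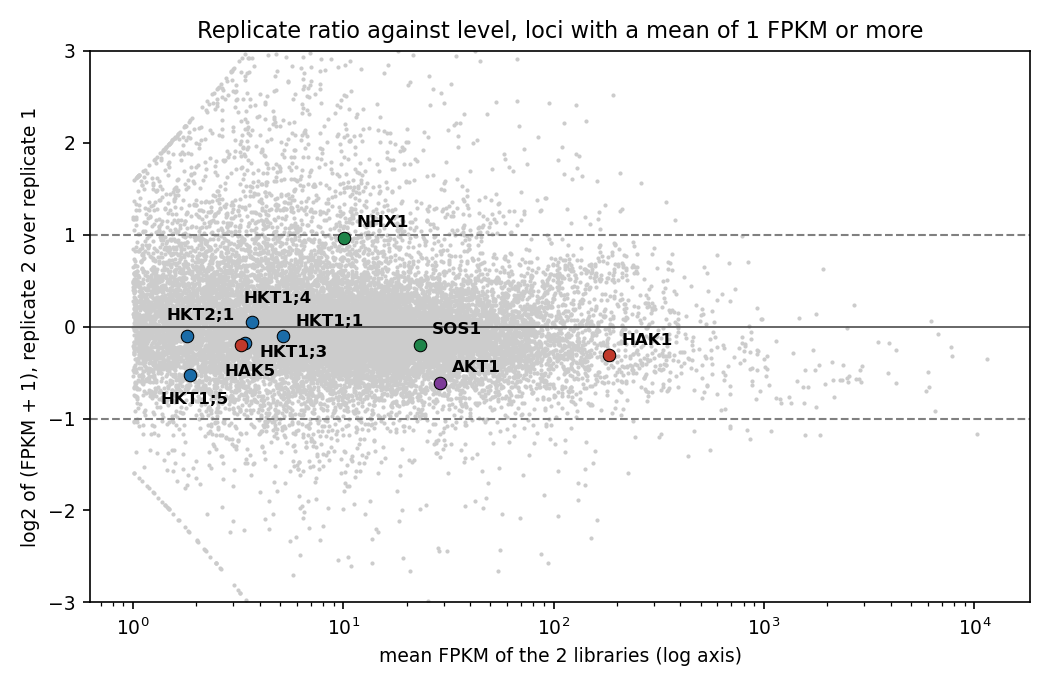
Log2 ratio of FPKM + 1 in replicate 2 over replicate 1 against the mean FPKM on a log axis, for rows with a mean of 1 FPKM or more (grey) and the 10 transporter genes (coloured by family); dashed lines mark 2-fold, and 165 grey rows beyond 3 on the vertical axis are not drawn. NHX1 sits at 0.97, just under the upper line, and the other 9 genes lie between -0.61 and 0.05.

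HKT1;1 and HKT1;4 follow each other in the locus numbers of chromosome 4, as LOC_Os04g51820 and LOC_Os04g51830, with no listed locus between them. In the RefSeq assembly 2 further genes start between them. These neighbours were of like level, HKT1;1 being 1.50-fold higher in replicate 1 and 1.31-fold higher in replicate 2. The sources used here do not say how fragments that match more than 1 gene were counted, and the likeness of the HKT sequences was not examined. The listed loci directly on either side of the pair were low. LOC_Os04g51809 had 0.577 FPKM in replicate 1 and 0.366 in replicate 2, and LOC_Os04g51854 had 0.0194 and 0.0725 FPKM. The next after that, LOC_Os04g51880, had 28.3 FPKM in replicate 1 and 21.3 in replicate 2, the highest of the loci around HKT1;4.

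The surroundings of the other transporters were of mixed level. The 2 listed loci before and the 2 after each transporter comprised 36 distinct loci that are not in the set. Of these, 19 (52.8%) were detected in both libraries, close to the 53.1% of all rows, and 8 were listed at 0 in both. HAK1, AKT1 and HKT1;1 were higher than each of the 4 loci around them. How often other rows exceed their 4 neighbours was not computed. Beside HAK1, the highest was LOC_Os04g32880, at 25.3 FPKM in replicate 1 and 20.7 in replicate 2.

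HAK5, in contrast, lay near a far more abundant locus. LOC_Os01g70470, the second before it, had 151.1 FPKM in replicate 1 and 114.9 in replicate 2, or 40.8 times the mean of HAK5. HKT1;3 lay between LOC_Os02g07820, with 35.7 and 22.0 FPKM, and LOC_Os02g07840, with 20.3 and 14.3 FPKM. Near SOS1, the second locus after it, LOC_Os12g44380, had 66.6 FPKM in replicate 1 and 64.9 in replicate 2. The loci on either side of NHX1 differed little between the libraries, with 11.5 and 10.9 FPKM at LOC_Os07g47090 and 10.01 and 8.91 FPKM at LOC_Os07g47110. Both were slightly higher in replicate 1 as deposited, whereas NHX1 was higher in replicate 2. Scaling to the same summed FPKM, which adds 0.15 to each log2 ratio of FPKM, can remove or turn differences as small as those of the 2 neighbours. HKT1;5 had 3 of its 4 surrounding loci listed at 0 in both libraries. The fourth, LOC_Os01g20181, had 3.29 and 6.48 FPKM. No names are paired with these IDs.

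**Figure D4:**
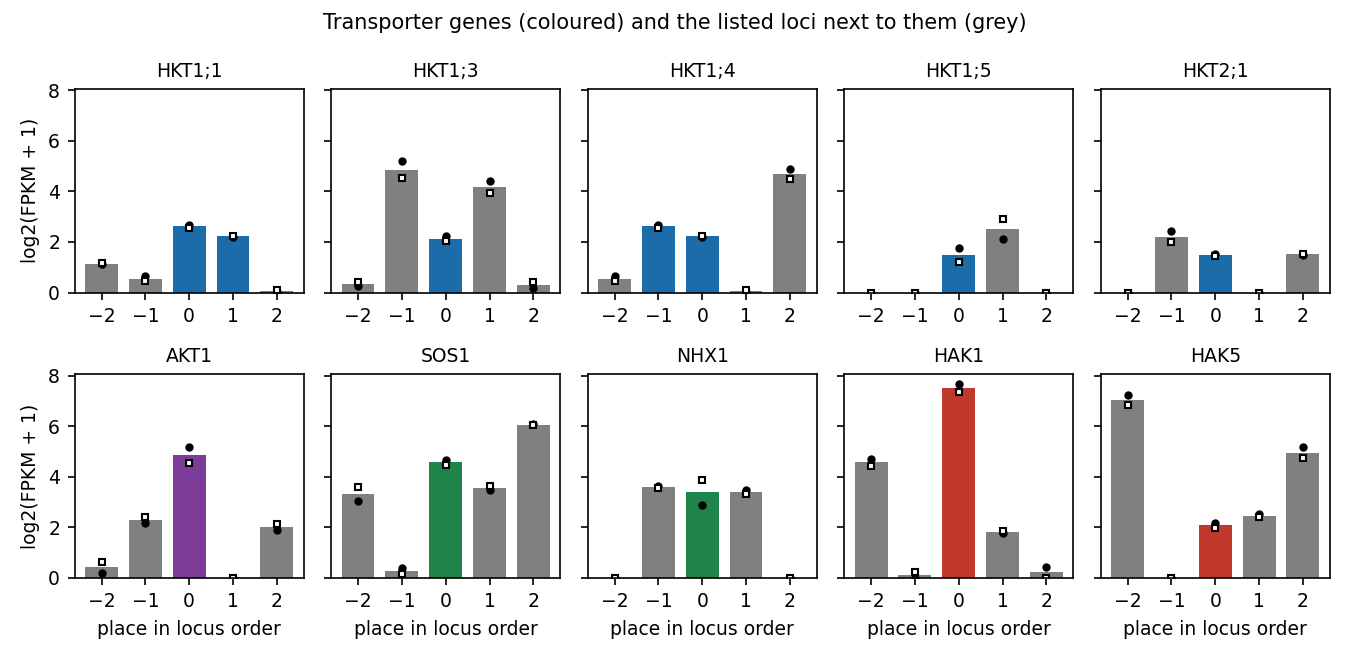
Mean log2(FPKM + 1) of each transporter (coloured bar at place 0) and of the 2 listed loci before and after it in locus number (grey bars, or coloured where that locus is itself one of the 10), with a filled circle for replicate 1 and an open square for replicate 2. HAK1 and AKT1 stand above their 4 neighbours, whereas HAK5 lies below 3 of its 4.

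Other genes of sodium and potassium transport, among them further HAK transporters, potassium channels and regulators of SOS1, were to be described with the set where the supplied table pairs their name with a listed ID. This held for 1 gene, OsCCC2, a member of the cation-chloride cotransporters, which carry chloride together with potassium or sodium. It had 0.357 FPKM in replicate 1 and 0.456 in replicate 2, below the level of each of the 10 transporters, and was not detected in either library. No other gene was searched for a likeness of pattern, because 2 libraries of a single group hold no pattern across conditions.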

How the data were processed

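Per the file headers, the authors deposited FPKM values per locus ID, in 1 table for each library. TopHat2 and Cufflinks are named, without versions, per the submitters' processing notes. Nothing on genome build, annotation or filters is given in the sources used here. The form of the IDs is that of japonica locus names, and 93-11 is indica, so a gene that differs between them could be listed too low. Depth cannot be read from FPKM, so no counting interval is given. The sums over all rows were 741624 FPKM (replicate 1) and 668305 FPKM (replicate 2). Values were used as deposited, with no filter. A gene was called detected at 1 FPKM or more in both libraries. Ratios are on log2(FPKM + 1), which understates those of low genes, and were set beside the 1000 rows nearest in mean level. No test was possible with 2 libraries of a single group. All 10 genes are named. For each of them the 2 listed loci on either side were summarised. The highest was named except for AKT1 and HKT2;1. The loci LOC_Os04g51809, LOC_Os04g51854, LOC_Os02g07840 and LOC_Os07g47110 were named after their values were seen. The genes and rules were chosen with earlier results of these data known. No gene or protein sequences were used, so identity between the HKT proteins was not computed. The calculation of ratios was tested on simulated data, with changes planted only at loci of 10 FPKM or more and libraries scaled by the median of ratios. That test does not cover changes at genes of lower level or ratios as deposited. Tools were Python 3.11.15, numpy 2.4.6, pandas 2.3.3 and matplotlib 3.10.9.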

Additional observations from a re-analysis of the deposited data

How the results depend on the processing

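No paired analysis was possible because both libraries belong to the same group. The number of transporters detected in both libraries was 10 after scaling to the same summed FPKM and 4 at 5 FPKM. It was also 10 at thresholds of 0.1 and 0.5 FPKM and in each library alone. Those counts follow from the one at 1 FPKM in both libraries, so they are no further check. The shares of all rows at the 2 lower thresholds were not computed. Their median level was 4.36 to 4.53 FPKM in the libraries taken singly. The steps with ranges that did not overlap numbered 5 as deposited and 6 after scaling, AKT1 to SOS1 being the one added. The number past 2-fold between replicates, a count added after seeing the data, was 0 as deposited and 1 under the other settings, NHX1 with a log2 ratio of 1.10 after scaling to the same total, 1.03 after scaling by the median of ratios, 1.06 with a pseudocount of 0.1 and 1.07 with 0.01. Against only the rows detected in both libraries, the percentiles ranged from 5.51 for HKT2;1 to 97.8 for HAK1. Unknown depth limits the genes near 1 FPKM.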
